A study of Mus musculus with 6 samples.

Results

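A set of 7 genes of the extracellular NAD and purine pathway was followed in sorted CD8 T cells: Cd38, Art2b, Entpd1, Nt5e, Adora2a, P2rx7 and P2rx4. They were taken by gene symbol from the deposited count tables, where all 7 of 7 symbols stand among 23284 genes. There were 2 groups, NKG2D+ and NKG2D- T cells from the lymph nodes of C3H/HeJ mice, the strain in which alopecia areata, an autoimmune loss of hair, is commonly studied, with 3 libraries in each group. Every sorted cell was CD3+CD8+CD44+CXCR3+, so the groups share an antigen-experienced surface phenotype and differ in NKG2D, the stress-ligand receptor that Klrk1 encodes. The series title speaks of effector cells in AA, no treatment is named, and the labels used here state neither age, sex nor disease of the mice. A bulk library cannot tell a change in the number of cells that use a gene from a change in RNA per cell.

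Cells release ATP and NAD when they are stressed or die, and T cells sense both at their surface. ATP opens the P2X channels P2RX7 and P2RX4, while CD39 (Entpd1) trims ATP and ADP to AMP and CD73 (Nt5e) turns AMP into adenosine, which raises cAMP through the receptor encoded by Adora2a and dampens T-cell responses. In mouse T cells the enzyme ART2.2 (Art2b) uses NAD to modify P2RX7 and lower its threshold for opening, and CD38 (Cd38) breaks down NAD, the substrate that ART2.2 needs.

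Cd38 was the 1 gene of the 7 that passed the test, and it was higher in NKG2D+ cells. With same-numbered libraries paired as 1 mouse, 0 of the 6 that were tested passed (Cd38 adjusted p = 0.053 by edgeR). Nt5e was higher, and P2rx7 and P2rx4 were lower, in all 3 NKG2D+ libraries than in any NKG2D- library, but these 3 genes missed the threshold after adjustment. Entpd1 and Adora2a overlapped between the groups, and Art2b was close to the limit of detection in all 6 libraries. Counts were compared across all 12951 genes with enough reads by edgeR's quasi-likelihood test, with Benjamini-Hochberg adjustment over all of them and a threshold of 0.05. That test covered 6 of the 7 genes, since Art2b had too few counts. Over all genes tested, 1.65% passed as higher in NKG2D+ cells and 0.363% as lower, against 1 and 0 of these 6. Every NKG2D+ library was above every NKG2D- library for 15.1% of all genes tested and below for 14.1%, against 2 and 2 of the 6. At an unadjusted p under 0.05 stood 4 of the 6, against 21.1% of all genes. Their median log2 fold change was 0.44, against -0.01 over all genes tested.

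Sequences are shown for P2rx7 and P2rx4, neighbouring genes read in the same direction on chromosome 5, because both stood lower in all 3 NKG2D+ libraries, and for Art2b beside its close copy, because its counts were few. The upstream sequences run from 250 bases before the first RefSeq start of each gene in the table to the last base before any annotated transcript of the gene (RefSeq, build GRCm38.p6, plus strand). Capitals mark matches on either strand to any of 6 motifs: TGTGGT for RUNX factors, GGTGTGA as a T-box half-site, TGANTCA for AP-1, GGGCGG as a GC box, CAGGTG for E proteins and ZEB factors, and TATAAA as a TATA box. The marked matches do not overlap each other.
P2rx7, chr5:122643677-122643910: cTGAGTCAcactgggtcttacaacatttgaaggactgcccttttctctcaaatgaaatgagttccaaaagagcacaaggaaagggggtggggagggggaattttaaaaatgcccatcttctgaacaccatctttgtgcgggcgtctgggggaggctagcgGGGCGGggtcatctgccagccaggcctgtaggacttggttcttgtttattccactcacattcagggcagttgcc
P2rx4, chr5:122707294-122707517: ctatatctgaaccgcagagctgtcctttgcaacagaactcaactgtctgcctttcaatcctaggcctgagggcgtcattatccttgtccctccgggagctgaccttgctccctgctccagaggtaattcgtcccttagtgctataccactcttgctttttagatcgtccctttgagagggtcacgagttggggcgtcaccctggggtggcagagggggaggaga
The printed P2rx7 stretch of 234 bases held 1 AP-1 match and 1 GC box, and the P2rx4 stretch of 224 bases held 0 matches to the 6 motifs. In the full window of 250 bases P2rx7 had 1 AP-1 match and 2 GC boxes, and P2rx4 again 0 matches. A 2nd RefSeq start of P2rx7, not printed, had 1 T-box half-site in its window and 0 matches to the other motifs. Among 32841 such windows, 6.75% held the AP-1 motif, 32.7% the GC box and 3.33% the T-box half-site. The lack of a match says only that these letters are not in this window. Of the 7 genes 6 had an entry in the table. Nt5e had the most GC-rich window, at 72% G and C against a median of 52.4% over all windows, with 4 GC-box matches.

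Cd38 encodes the NAD-consuming surface enzyme CD38. It stood at 19.2, 21.0 and 22.8 CPM (reads scaled to the total counted in genes) in NKG2D+ libraries 1, 2 and 3 and at 9.65, 12.8 and 13.02 CPM in NKG2D- libraries 1, 2 and 3, from 383 to 1881 reads a library. All 3 NKG2D+ libraries lay above all 3 NKG2D- libraries, and the gap held within each same-numbered pair, by 1.00, 0.72 and 0.81 on the log2 scale. Cd38 averaged 21.0 ± 1.77 CPM across NKG2D+ libraries and 11.8 ± 1.88 CPM across NKG2D- libraries (SD, n = 3 each), a 1.78-fold increase or 0.83 on the log2 scale (SE 0.14, 95% interval 0.50 to 1.16, adjusted p = 0.0403 by edgeR). With the mouse as a block the estimate was 0.84 (adjusted p = 0.053). The adjusted p was 0.154 without NKG2D+ library 3 and 0.143, 0.138 and 0.18 without NKG2D- libraries 1, 2 and 3, with log2 fold changes between 0.70 and 0.90. Leaving out both libraries of a mouse gave an adjusted p of 0.0283 without mouse 1, 0.0762 without mouse 2 and 0.557 without mouse 3. Cd38 passed without NKG2D+ library 1 (adjusted p = 0.0185), without NKG2D+ library 2 (adjusted p = 0.0261) and by DESeq2 (adjusted p = 1.11e-05). It did not pass by limma-voom (adjusted p = 0.06). Bst1, the neighbour and close relative of Cd38 that encodes the related NAD enzyme CD157, stood at 0.183, 0.413 and 0.479 CPM in NKG2D+ and at 0.0756, 0.389 and 0.374 CPM in NKG2D- libraries (log2 fold change 0.31, SE 0.59, adjusted p = 0.811), and was chosen as its relative after the values were seen.

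**Figure D1:**
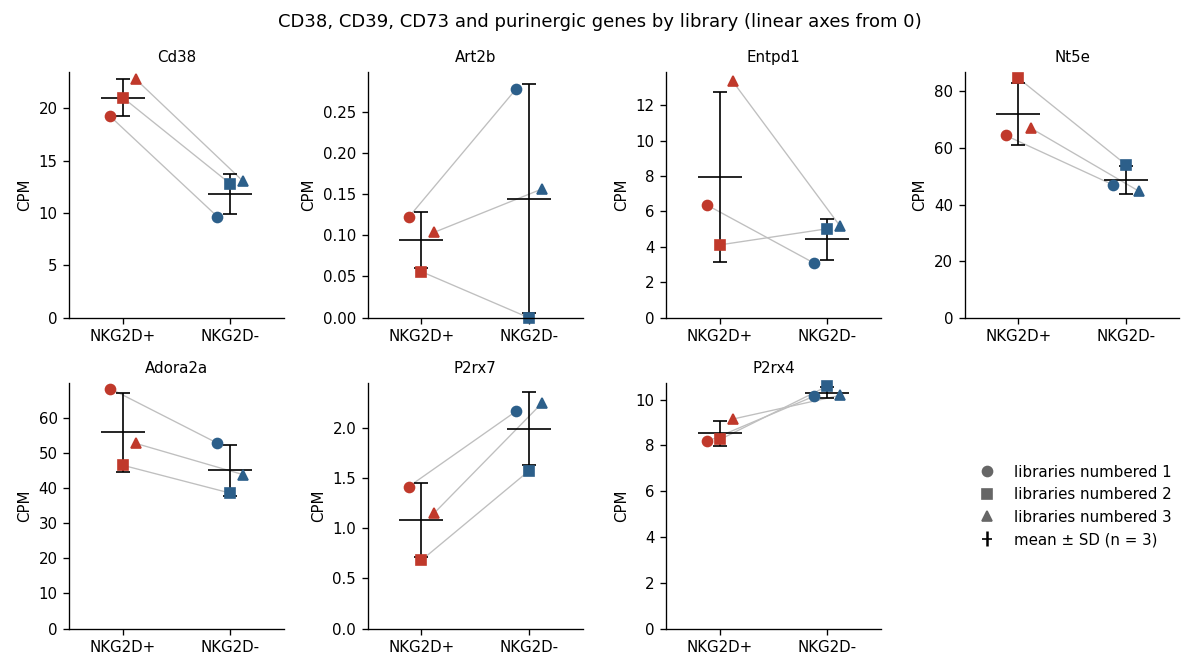
Normalised level (CPM, linear axes from 0) of each of the 7 genes in the NKG2D+ and NKG2D- libraries; the shapes give the library number, grey lines join libraries of the same number and black bars give mean ± SD (n = 3). Cd38 and Nt5e were higher in all 3 NKG2D+ libraries, P2rx7 and P2rx4 lower, and Entpd1 spread from 4.11 to 13.3 CPM within the NKG2D+ group.

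B-cell markers, summed, stood higher in all 3 NKG2D+ libraries, as Cd38 did, and B cells are known to express Cd38. The summed level of 9 B-cell marker genes was 580, 379 and 423 CPM in NKG2D+ libraries 1, 2 and 3 and 108, 273 and 232 CPM in NKG2D- libraries 1, 2 and 3. Of the 9 markers, 9 had a positive log2 fold change (median 1.42) and 0 were at 0 in all libraries. By edgeR 0 of the 9 passed and 8 had an unadjusted p under 0.05, against 21.1% of all genes tested. By DESeq2 3 of the 9 passed as higher, against 1001 of all 12951 genes tested, and by limma-voom 0, against 60. NKG2D+ library 1 had the highest B-cell sum and the lowest Cd38 of the NKG2D+ group, while in the NKG2D- group library 1 was lowest in both. The part of B-cell RNA in the Cd38 difference was not tested.

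**Figure D2:**
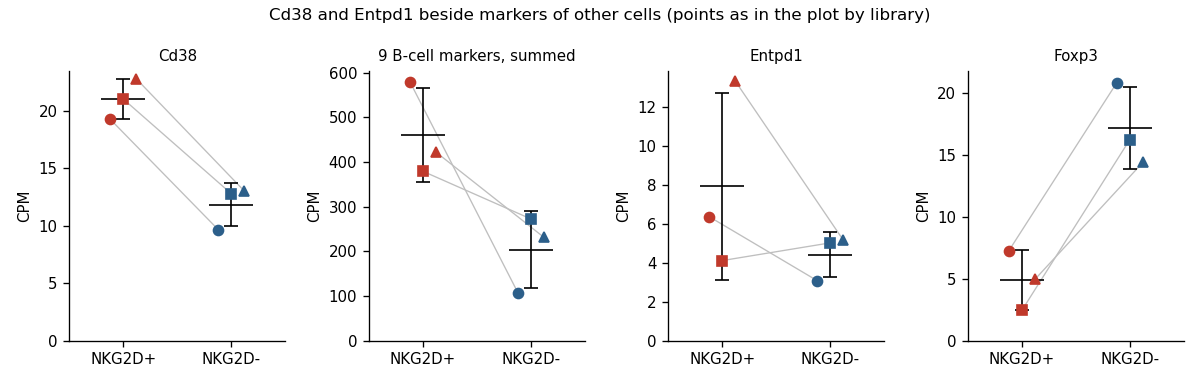
Cd38 and Entpd1 (CPM) beside the summed CPM of 9 B-cell markers and the CPM of Foxp3 in the NKG2D+ and NKG2D- libraries, drawn as in the plot by library. The B-cell sum ranged from 379 to 580 CPM in NKG2D+ and from 108 to 273 CPM in NKG2D- libraries, and Foxp3 was lower in all 3 NKG2D+ libraries. Cd40lg and Zbtb7b, listed with Foxp3 and not drawn, were higher in all 3 NKG2D+ libraries.

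Art2b encodes the ADP-ribosyltransferase ART2.2. It had 8, 5 and 8 reads in NKG2D+ libraries 1, 2 and 3 and 11, 0 and 10 reads in NKG2D- libraries 1, 2 and 3, or at most 0.277 CPM. The 0 reads of NKG2D- library 2 allow a level of up to 0.0507 CPM (3 counts), and this limit covers counting error only. No difference between the groups was detectable at this depth. In the 3 other fits that kept Art2b its log2 fold change was -0.57 without the filter on low counts (adjusted p = 0.79 by edgeR), -0.75 with NKG2D+ library 1 left out (adjusted p = 0.769) and -1.18 with NKG2D- library 2 left out (adjusted p = 0.356). Art2a-ps, the neighbouring copy listed as a pseudogene in the C57BL/6 reference, had 9, 11 and 18 reads in NKG2D+ and 1, 7 and 2 reads in NKG2D- libraries. Reads that align to several places were counted apart from genes, so the similarity of the copies bears on both counts. Over 861 aligned coding bases 752 were identical (87.3%), and 14.8% of the 50-base windows of the Art2b coding sequence occurred unchanged in the Art2a-ps transcript (29.7% of 25-base and 3.39% of 100-base windows). The middle 90 bases of the alignment (GENCODE M21 transcripts, GRCm38, coding exon, minus strand) show the spacing of the differences, with capitals at the 9 bases where the copies differ. Read length is not stated in the labels used here, and the C3H/HeJ sequence was not used here.
Art2b, chr7:101580213-101580302: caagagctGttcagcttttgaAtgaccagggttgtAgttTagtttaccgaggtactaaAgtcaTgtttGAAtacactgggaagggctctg
Art2a-ps, chr7:101554852-101554941: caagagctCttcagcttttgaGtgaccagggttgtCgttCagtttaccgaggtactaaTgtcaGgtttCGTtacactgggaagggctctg

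Entpd1 encodes CD39, the first enzyme on the path from ATP to adenosine. It stood at 6.36, 4.11 and 13.3 CPM in NKG2D+ libraries 1, 2 and 3 and at 3.07, 5.02 and 5.16 CPM in NKG2D- libraries 1, 2 and 3. NKG2D+ library 3 was far above the rest, NKG2D+ library 2 lay within the NKG2D- range, and the direction turned in pair 2. The log2 fold change was 0.84 (SE 0.44, 95% interval -0.20 to 1.88, adjusted p = 0.335 by edgeR), and 0.24 without NKG2D+ library 3. CD39 is known from regulatory T cells, whose transcription factor gene Foxp3 stood at 7.27, 2.45 and 4.94 CPM in NKG2D+ and at 20.8, 16.2 and 14.4 CPM in NKG2D- libraries (adjusted p = 0.0687). Of the genes listed with Foxp3, Cd40lg and Zbtb7b went the other way, higher in all 3 NKG2D+ libraries, and Cd4 and Ikzf2 overlapped. Cd40lg stood at 47.7, 3.57 and 6.90 CPM in NKG2D+ and at 2.09, 1.93 and 1.36 CPM in NKG2D- libraries. Zbtb7b stood at 53.0, 33.0 and 37.4 CPM in NKG2D+ and at 18.7, 27.4 and 21.5 CPM in NKG2D- libraries. The summed level of the 5 genes of regulatory and other CD4 T cells was 136, 46.9 and 63.2 CPM in NKG2D+ and 64.6, 74.4 and 64.1 CPM in NKG2D- libraries, with 0 of the 5 at 0. By edgeR 0 passed and 3 had an unadjusted p under 0.05, against 21.1% of all genes tested. DESeq2 called 2 higher and 1 lower, against 1001 and 441 of all 12951 genes tested. By limma-voom 0 passed, against 60 higher and 23 lower over all genes tested. The summed B-cell markers and the summed myeloid and dendritic markers stood higher in all 3 NKG2D+ libraries. The part of any of these cells in the Entpd1 values was not tested.

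Nt5e encodes CD73, which makes adenosine from AMP. It stood at 64.5, 84.7 and 66.9 CPM in NKG2D+ libraries 1, 2 and 3 and at 47.0, 54.1 and 44.8 CPM in NKG2D- libraries 1, 2 and 3. The groups did not overlap, and the pairs differed by 0.46, 0.64 and 0.58 on the log2 scale. Nt5e averaged 72.0 ± 11.0 CPM across NKG2D+ libraries and 48.6 ± 4.90 CPM across NKG2D- libraries (SD, n = 3 each), 0.57 higher on the log2 scale (SE 0.13, 95% interval 0.27 to 0.87). The adjusted p was 0.0752 by edgeR and 0.0539 with the mouse as a block, above the threshold in both. It passed when NKG2D+ library 1 was left out (adjusted p = 0.0321), when NKG2D+ library 2 was (adjusted p = 0.0427), and by DESeq2 (adjusted p = 0.00203). It did not pass without NKG2D+ library 3 (adjusted p = 0.171) or by limma-voom (adjusted p = 0.116). Without NKG2D- libraries 1, 2 and 3 the adjusted p was 0.26, 0.151 and 0.296, and without mice 1, 2 and 3 it was 0.0989, 0.0542 and 0.611.

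CD39 and CD73 act in sequence, so their ratio within a library was compared as well. There were 9.86, 4.86 and 19.9 Entpd1 reads for every 100 Nt5e reads in NKG2D+ libraries 1, 2 and 3 and 6.54, 9.27 and 11.5 in NKG2D- libraries 1, 2 and 3. The NKG2D+ range enclosed the NKG2D- range. On the log2 scale the ratio was -3.34 ± 1.02 in NKG2D+ and -3.49 ± 0.41 in NKG2D- cells (SD, n = 3 each), a difference of 0.15 (two-sided exact permutation p = 0.9, the lowest possible p being 0.1). The difference was -0.36 without NKG2D+ library 3, -0.07 without NKG2D- library 1, 0.34 without NKG2D- library 3 and 0.66 without NKG2D+ library 2.

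Adora2a encodes the adenosine receptor that dominates on T cells. It stood at 68.5, 46.6 and 52.8 CPM in NKG2D+ libraries 1, 2 and 3 and at 52.9, 38.6 and 43.9 CPM in NKG2D- libraries 1, 2 and 3. The groups overlapped, yet the NKG2D+ library was the higher in 3 of 3 same-numbered pairs, by 0.37, 0.27 and 0.27 on the log2 scale. The log2 fold change was 0.31 (SE 0.17, 95% interval -0.09 to 0.71, adjusted p = 0.354 by edgeR). With the mouse as a block the SE was 0.05 and the adjusted p 0.0913, which missed the threshold too.

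P2rx7 encodes the ATP-gated channel P2RX7, which at high ATP can lead to shedding of surface proteins and death of T cells. It stood at 1.41, 0.681 and 1.15 CPM in NKG2D+ libraries 1, 2 and 3 and at 2.17, 1.57 and 2.25 CPM in NKG2D- libraries 1, 2 and 3, from 61 to 144 reads a library. All NKG2D+ libraries were below all NKG2D- libraries. P2rx7 averaged 1.08 ± 0.372 CPM across NKG2D+ libraries and 1.99 ± 0.368 CPM across NKG2D- libraries (SD, n = 3 each), with a log2 fold change of -0.88 (SE 0.32, 95% interval -1.64 to -0.13, unadjusted p = 0.0277, adjusted p = 0.181 by edgeR). It did not pass in any of the other fits tried, where its adjusted p ran from 0.101 to 0.737.

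P2rx4 encodes P2RX4, an ATP-gated channel that opens at lower ATP than P2RX7. It stood at 8.17, 8.26 and 9.15 CPM in NKG2D+ libraries 1, 2 and 3 and at 10.2, 10.6 and 10.2 CPM in NKG2D- libraries 1, 2 and 3. The groups did not overlap, but the gap was small beside that of P2rx7, with a log2 fold change of -0.27 (SE 0.11, 95% interval -0.53 to -0.02, adjusted p = 0.211 by edgeR). The kinase gene Camkk2 overlaps P2rx4 and stood at 26.8, 41.3 and 35.0 CPM in NKG2D+ and at 32.8, 41.1 and 38.8 CPM in NKG2D- libraries. The tables hold a count of ambiguous reads apart from genes, and whether strand was used is not known, so how reads of the overlap were assigned cannot be told.

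The 7 genes covered a wide range of levels. Per kilobase of exon (protein-coding transcripts of GENCODE M21), Adora2a had 21.6 ± 4.35 CPM per kb in NKG2D+ and 17.4 ± 2.77 in NKG2D- cells, and Nt5e had 18.0 ± 2.76 in NKG2D+ and 12.2 ± 1.23 in NKG2D- cells. Cd38 had 6.42 ± 0.54 CPM per kb in NKG2D+ and 3.61 ± 0.576 in NKG2D- cells, and P2rx4 had 3.15 ± 0.2 in NKG2D+ and 3.81 ± 0.0889 in NKG2D- cells. Entpd1 followed at 1.82 ± 1.11 CPM per kb in NKG2D+ and 1.02 ± 0.269 in NKG2D- cells. P2rx7 had 0.196 ± 0.0673 CPM per kb in NKG2D+ and 0.361 ± 0.0666 in NKG2D- cells, and Art2b 0.0331 ± 0.012 in NKG2D+ and 0.051 ± 0.0491 in NKG2D- cells (SD, n = 3 for each value). Adora2a and Nt5e overlapped in NKG2D+ libraries and did not overlap in NKG2D- libraries. Cd38 lay above P2rx4 in all NKG2D+ libraries, while their ranges overlapped in NKG2D- libraries, from 2.95 to 3.98 CPM per kb for Cd38 and from 3.76 to 3.92 for P2rx4. The ranges of P2rx4 and Entpd1 overlapped in NKG2D+ cells, where Entpd1 reached 3.07 CPM per kb in library 3 and P2rx4 began at 3.02.

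**Figure D3:**
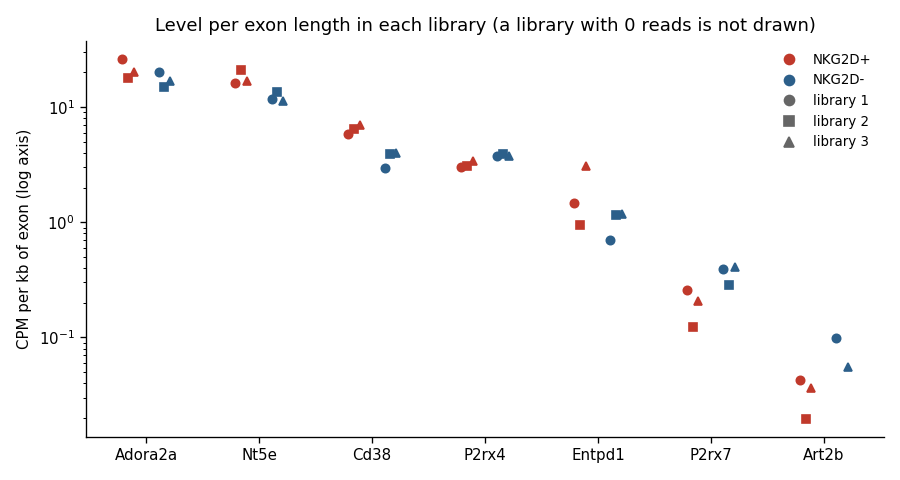
Level per kilobase of exon (CPM per kb, log axis) of the 7 genes in each NKG2D+ and NKG2D- library, ordered by level; shapes give the library number and NKG2D- library 2 with 0 Art2b reads is not drawn. Adora2a and Nt5e stood highest, between 11.2 and 26.4 CPM per kb, and Art2b lowest.

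Some other genes of the pathway differed more than these 7. Of 84 genes listed for the pathway, the 7 included, 83 are named in the files and 64 were tested. Of these 64, 4 rose in NKG2D+ cells, 2 fell and 58 did not pass. Over all genes tested, 1.65% passed as higher and 0.363% as lower. With same-numbered libraries paired, 1 of the 64 rose (Adora3) and 2 fell, against 57 and 11 of all 12951 genes tested. The median log2 fold change of the 64 was 0.07, against -0.01 over all genes tested. The genes that rose were Cd38, the adenosine receptor gene Adora3, the UDP-sugar receptor gene P2ry14 and the cAMP phosphodiesterase gene Pde4a, and those that fell were the phosphatase gene Alpl and Dpp4, which encodes CD26.

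Among receptors, 1 of 5 tested P2Y genes, 1 of 2 tested adenosine receptor genes and 0 of 3 tested P2X genes rose, and 0 fell. Over all genes tested 1.65% rose and 0.363% fell. Adora3 stood at 1.52, 1.45 and 5.38 CPM in NKG2D+ libraries 1, 2 and 3 and at 0.126, 0.0845 and 0.156 CPM in NKG2D- libraries 1, 2 and 3 (log2 fold change 4.49, SE 0.69, adjusted p = 0.0339 by edgeR). NKG2D+ library 3, the highest for Entpd1, was also the highest for Adora3, whose log2 fold change was 3.58 without it (adjusted p = 0.055). The adjusted p of Adora3 was 0.174, 0.142 and 0.195 without NKG2D- libraries 1, 2 and 3. Tmigd3 overlaps Adora3 in the GRCm38 annotation and has no count of its own here. Reads of Tmigd3 may have been counted as Adora3, and their part in the Adora3 counts was not tested. The Adora3 relatives Adora1 and Adora2b, also named after their values were seen, had at most 0.0304 CPM in any library.

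P2ry14 stood at 2.86, 1.08 and 1.40 CPM in NKG2D+ libraries 1, 2 and 3 and at 0.277, 0.254 and 0.172 CPM in NKG2D- libraries 1, 2 and 3 (log2 fold change 2.93, SE 0.46, adjusted p = 0.0343 by edgeR, and 0.0603 with the block). The adjusted p was 0.108 without NKG2D+ library 3 and 0.165, 0.142 and 0.201 without NKG2D- libraries 1, 2 and 3. Med12l, within which P2ry14 lies, stood higher in NKG2D+ libraries too, at 3.44, 1.63 and 2.59 CPM in NKG2D+ and 0.882, 0.676 and 0.749 CPM in NKG2D- libraries. The long noncoding RNA gene F630111L10Rik overlaps P2ry14 as well, and its counts were not examined. The part of these 2 genes in the P2ry14 counts was not tested.

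Among enzymes and handling genes, 1 of 6 tested ecto-nucleotidases and ecto-phosphatases fell and 0 rose, against 0.363% and 1.65% of all genes tested. Alpl, which encodes tissue-nonspecific alkaline phosphatase, stood at 4.08, 3.69 and 3.67 CPM in NKG2D+ and at 15.3, 11.2 and 11.9 CPM in NKG2D- libraries 1, 2 and 3, which was lower in all 3 NKG2D+ libraries (log2 fold change -1.75, SE 0.16, adjusted p = 0.0089 by edgeR). The adjusted p of Alpl was 0.0766 without NKG2D+ library 3 and 0.0647 without NKG2D- library 3. Of 9 genes of adenosine breakdown and transport 1 fell and 0 rose. CD26, the product of Dpp4, binds adenosine deaminase at the surface of human T cells. The cells here are of mouse, so the Dpp4 level is not read as a change in adenosine handling. Dpp4 stood at 62.0, 61.2 and 59.5 CPM in NKG2D+ and at 119, 102 and 95.7 CPM in NKG2D- libraries 1, 2 and 3 (log2 fold change -0.79, SE 0.09, adjusted p = 0.0184). For Dpp4 the adjusted p was 0.102 without NKG2D+ library 3 and 0.0877 and 0.0676 without NKG2D- libraries 2 and 3. Ada, the deaminase itself, stood at -0.08 on the log2 scale (adjusted p = 0.811) and was chosen for mention after its values were seen.

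Downstream of the adenosine receptors, 1 of 17 tested genes of cAMP signalling rose and 0 fell, against 1.65% and 0.363% of all genes tested. Pde4a, which breaks down cAMP, stood at 15.1, 7.08 and 9.44 CPM in NKG2D+ and at 1.71, 2.40 and 1.82 CPM in NKG2D- libraries 1, 2 and 3 (log2 fold change 2.41, SE 0.31, adjusted p = 0.022 by edgeR, and 0.0774 with the block). Its adjusted p was 0.0948 without NKG2D+ library 3 and 0.149, 0.0965 and 0.154 without NKG2D- libraries 1, 2 and 3. In the lists of ATP release (3 tested), P2RX7 response (7 tested) and NAD synthesis and use (9 tested) 0 genes passed by edgeR. At an unadjusted p under 0.05 stood 1, 2 and 1 of them, against 21.1% of all genes tested. The members of these lists with the smallest p were Slc17a9, a vesicular nucleotide transporter, with a log2 fold change of -0.52 (adjusted p = 0.215), the potassium channel gene Kcnn4 with -0.50 (adjusted p = 0.0869), and the NAD synthesis gene Nmnat2 with -1.27 (adjusted p = 0.122). By DESeq2 0 genes of ATP release passed, 1 of the P2RX7 response, the inflammasome protease gene Casp1, rose and 1, Kcnn4, fell, and 1 of NAD synthesis and use, Nmnat2, fell (adjusted p = 0.00573 for Kcnn4 and 0.00375 for Nmnat2). By limma-voom 0 passed in these lists. Of all 12951 genes tested, DESeq2 called 1001 higher and 441 lower, and limma-voom 60 and 23. Casp1, named after its values were seen, stood at 60.9, 14.8 and 42.0 CPM in NKG2D+ libraries 1, 2 and 3 and at 10.6, 14.5 and 13.1 CPM in NKG2D- libraries 1, 2 and 3, with an adjusted p of 0.123 by edgeR.

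**Figure D4:**
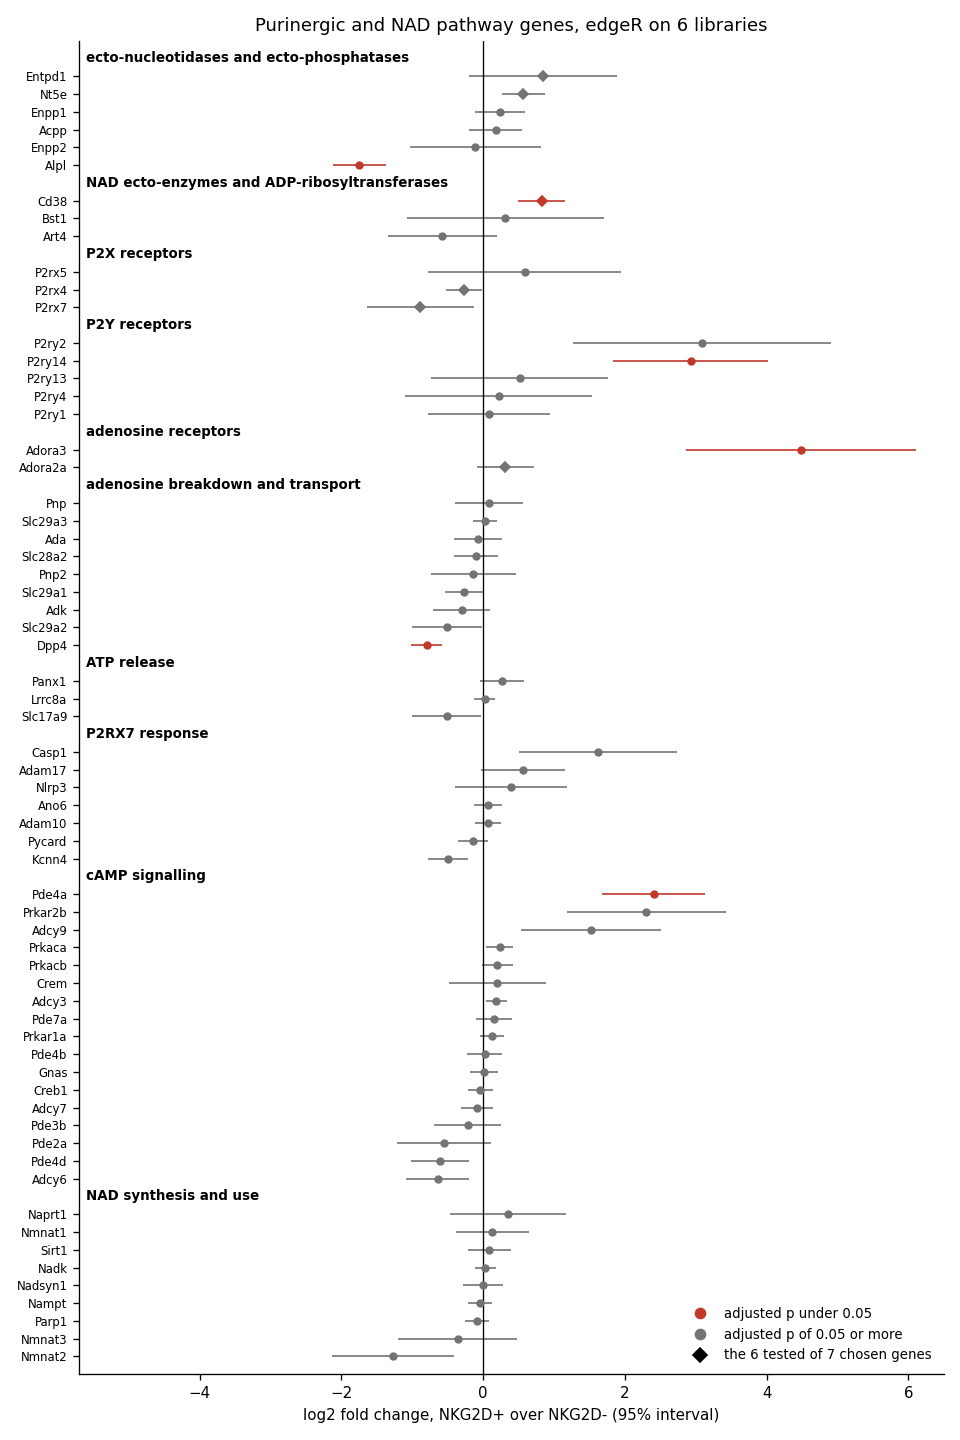
Log2 fold change, NKG2D+ over NKG2D-, with its 95% interval for each of the 64 tested pathway genes, grouped by list; diamonds are the 6 tested of the 7 genes and red marks an adjusted p under 0.05. Adora3, at 4.49, and Alpl, at -1.75, were the highest and the lowest value.

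The gene profiles nearest to each member were measured by the root mean square difference of mean-centred log2 CPM over the 6 libraries, among other genes with a mean of at least 5 CPM. Nearest to Cd38 were Fam185a and Clspn, at 0.104 and 0.106, and nearest to Nt5e Zfp219 and Pcgf2, at 0.0631 and 0.0769. For P2rx4 they were Zfp235 and Gbp11, at 0.0235 and 0.0254, and for Adora2a Zfp189 and Atp6v0b, at 0.045 and 0.0564. P2rx7 had Oas2 and Id3 at 0.193 and 0.197. Entpd1 had no gene as near, with Sfi1 at 0.366 and Pros1 at 0.379. The distance depends on how much a member itself varies, so it does not rank the members by closeness alone. The root mean square spread of the members was 0.147 for P2rx4, 0.258 for Adora2a, 0.316 for Nt5e, 0.445 for Cd38, 0.539 for P2rx7 and 0.646 for Entpd1. Among the members themselves, Cd38 and Nt5e were the nearest pair, at 0.239.

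**Figure D5:**
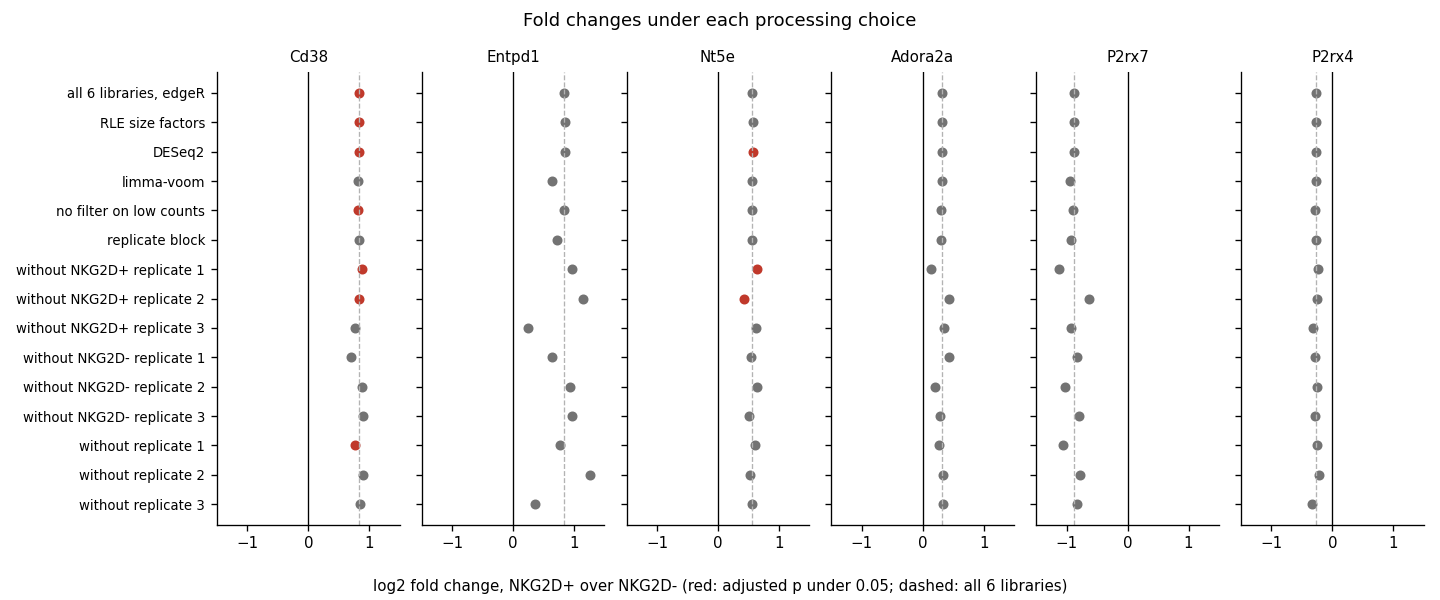
Log2 fold change of the 6 tested genes (1 panel each) on all 6 libraries and under each other processing choice (down the axis); red marks an adjusted p under 0.05 and the dashed line the value on all libraries. Each gene stayed on its side of 0 in every fit shown, while Cd38 and Nt5e crossed the threshold in some, and Entpd1 moved from 0.84 to 0.24 without NKG2D+ library 3.

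The sort and the libraries bear on these values in common. Klrk1 stood at 312 to 409 CPM in NKG2D+ and at 34.5 to 37.1 CPM in NKG2D- libraries. Of 5 T-cell markers in the files (Cd3e, Cd3d, Cd3g, Cd8a and Cd8b1) 0 passed the test, and their sum was 3057 to 4709 CPM in NKG2D+ and 3203 to 3440 CPM in NKG2D- libraries. The summed level of 10 myeloid and dendritic markers was 13.7 to 20.5 CPM in NKG2D+ and 7.96 to 9.82 CPM in NKG2D- libraries. Of 9 tested, 7 had a positive log2 fold change, while Siglech stood at -1.21 and Flt3 at -0.09. By edgeR 0 of the 9 passed and 6 had an unadjusted p under 0.05, against 21.1% of all genes tested. DESeq2 called 3 higher and 0 lower, against 1001 and 441 of all 12951 genes tested. For 5 genes of NK cells, Eomes, Nkg7 and Gata3 among them, which CD8 T cells use too, the sum was 946 to 1028 CPM in NKG2D+ and 815 to 874 CPM in NKG2D- libraries. Of its defining genes, Ncr1 stood at 0.532, 0.57 and 0.596 CPM in NKG2D+ libraries 1, 2 and 3 and at 0.126, 0.406 and 0.203 CPM in NKG2D- libraries 1, 2 and 3 (log2 fold change 1.17, adjusted p = 0.177 by edgeR). Klrb1c stood at 2.40, 5.12 and 3.99 CPM in NKG2D+ and at 1.34, 2.35 and 2.62 CPM in NKG2D- libraries (log2 fold change 0.86, adjusted p = 0.227 by edgeR). The sum of 3 gamma-delta and NKT cell genes was 9.95 to 16.7 CPM in NKG2D+ and 1.41 to 8.03 CPM in NKG2D- libraries, nearly all of it from Blk, a B-cell gene as well, and that of 4 plasma cell genes was 38.2 to 78.8 CPM in NKG2D+ and 33.6 to 38.2 CPM in NKG2D- libraries. Of the NK, gamma-delta and NKT, and plasma cell lists 0 tested genes passed by edgeR. By DESeq2 1 in each passed as higher, against 1001 of all 12951 genes tested. At an unadjusted p under 0.05 by edgeR stood 4 of 5 NK, 1 of 2 gamma-delta and NKT and 1 of 3 plasma cell genes. Over all genes tested the share was 21.1%. Of the 5 NK genes 4 had a positive log2 fold change. In these lists 0 genes were at 0 in all libraries, and the part of such cells in the results was not tested.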

How the data were processed

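RNA of 6 libraries from sorted lymph node T cells was measured by sequencing, with TruSeq libraries made from column-extracted, DNase-treated RNA, per the labels' protocols. The authors deposited read counts per gene symbol, not normalised, 1 file per library. The submitters' processing notes list CASAVA 1.8.2, TopHat2 2.0.4 and mm9; the read counter and whether it used strand are not given there. The 5 summary counts that name no gene, 35.2% to 41.4% of all counts, were left out. Gene counts ran from 63232698 to 89184611 per NKG2D+ library and from 41168816 to 67315805 per NKG2D- library.

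Counts were fitted in R 4.3.3 with edgeR 4.0.16 (TMM, robust quasi-likelihood F-test, group as the only term) after filterByExpr at its defaults (minimum count 10, minimum total 15). CPM uses TMM-scaled library sizes, the SE is the log2 fold change over the square root of F, and 95% intervals use the moderated degrees of freedom. Alternatives were DESeq2 1.42.0, limma-voom (limma 3.58.1), other size factors, no filter, a replicate block and libraries left out. The test was checked on simulated data.

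The members and lists were chosen with earlier results of these data known. Named genes are the members, pathway genes past the threshold, the smallest p in a list where none passed, the 2 nearest profiles per member, and Klrk1. Bst1, Adora1, Adora2b, Ada, Casp1, the overlapping genes and the markers given singly fall outside that rule and were named after their values were seen. By the design text, populations were sorted out of 3 mice, so a shared number was read as a shared mouse. The log2 CPM deviations of such pairs from their group means had r = 0.23, 0.17 and 0.30 across genes, which are not independent replicates. Within a group the chi-square between any 2 libraries was at least 43.3 per degree of freedom, so none was counted as a copy of another. GRCm38 annotation served for exon lengths, overlapping genes and printed sequences, and its coordinates were not joined to the mm9 counts.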

Additional observations from a re-analysis of the deposited data

How the results depend on the processing

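By edgeR on all libraries 1 member gene was called higher and 0 lower, and 4 pathway genes higher and 2 lower; other size factors and no filter on low counts gave the same counts. DESeq2 called 2 members (Cd38 and Nt5e) and 9 pathway genes higher and 6 pathway genes lower, and limma-voom called 0 members and 0 pathway genes higher and 2 pathway genes lower. Over all genes tested, edgeR called 261, DESeq2 1442 and limma-voom 83. With the replicate block, in which same-numbered libraries are paired, 68 genes were called, with 0 members and 1 pathway gene (Adora3) higher and 2 pathway genes lower, and the paired difference of the Entpd1 to Nt5e log2 ratio was 0.15 (two-sided exact paired permutation p = 1). With single libraries or both libraries of a mouse left out, the members called higher ranged from 0 to 2, the pathway genes called higher from 0 to 10 and those called lower from 0 to 6. Over all genes, 543 passed without NKG2D+ library 1, 1312 without NKG2D+ library 2 and 15 without NKG2D+ library 3. There were 21, 13 and 8 without NKG2D- libraries 1, 2 and 3, and 0 without mouse 3. Fewer libraries were fitted there, and the cause of the swings was not tested. The Entpd1 to Nt5e difference ranged from -0.36 to 0.66 with a library left out, at -0.36 without NKG2D+ library 3 and -0.07 without NKG2D- library 1. Over the alternative fits of the tested members and named pathway genes, 151 values kept their side of the threshold. Of the rest 36 lost a call and 9 gained one, and 0 turned direction. Only Cd38, Adora3, P2ry14, Pde4a, Alpl and Dpp4, called by edgeR on all libraries, could lose a call, so all 36 losses were theirs. The 151 include values of genes not called on all libraries, so they do not measure how stable the calls were. Art2b had too few reads for the default filter on all libraries and did not pass in the 3 fits that kept it.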
